A study of Mus musculus with 6 samples.

Results

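For circRNAs in mouse aortas, 10 genes of the smooth muscle contractile programme were examined: Myocd, Myh11, Acta2, Mylk, Prkg1, Cald1, Cnn1, Lmod1, Synpo2 and Actn1. All entries of the deposited circRNA table assigned to one of these 10 host genes were taken, without regard to their values. They made up 29 of 10023 entries (0.289%) and 119 of 37393 back-spliced reads (0.318%), and came from 9 of the 10 genes. The aortas came from male ApoE-/- mice on the C57BL/6 strain, which lack apolipoprotein E, clear lipoproteins poorly and form atherosclerotic lesions. From 6 weeks of age they received chow diet (labelled normal diet, 3 aortas) or a high-fat diet (HFD, 3 aortas) for 12 weeks, so both groups carry the same deletion and differ in diet. A circRNA is counted by the reads that cross its back-splice, the junction of the downstream end of an exon or intron to an upstream start.

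Vascular smooth muscle cells contract when calcium and calmodulin activate myosin light chain kinase, which lets smooth muscle myosin pull on actin filaments. Myocardin, the product of Myocd, is a coactivator of serum response factor and drives transcription of most genes of this programme. In atherosclerosis smooth muscle cells are known to lose contractile gene expression as they enter lesions. A circRNA count follows both transcription of the host gene and the frequency of back-splicing, and the aortas were measured as bulk tissue. Fewer smooth muscle cells and less of an RNA per cell therefore cannot be told apart.

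The circle that carried most of the signal was circRNA366 of Myocd. It joined the end of exon 5 to the start of exon 2 of the 14-exon transcript ENSMUST00000108695 and lies at chr11:65218529-65233184 on the minus strand of GRCm38. A pair of further Myocd junctions was listed. circRNA3012 (chr11:65204259-65233184) joined exon 6 to the same start of exon 2. By its deposited ends, circRNA4506 (chr11:65218530-65228861) joined the end of exon 5 to a 44-nt exon at chr11:65228818-65228861. This exon lies between exons 2 and 3 and is annotated only in a processed transcript of 4 exons. The 30 bases on each side of each junction are shown to make the shared sides visible, 5′ to 3′, with the bases after the back-splice in capitals.
circRNA366: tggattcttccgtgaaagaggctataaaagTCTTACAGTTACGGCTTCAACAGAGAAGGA
circRNA3012: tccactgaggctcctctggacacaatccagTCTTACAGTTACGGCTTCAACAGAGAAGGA
circRNA4506: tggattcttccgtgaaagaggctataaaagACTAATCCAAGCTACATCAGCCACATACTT
circRNA366 and circRNA3012 share the capitals, the start of exon 2. circRNA366 and circRNA4506 share the lower-case side, the end of exon 5. The deposited lower end of circRNA4506 lies 1 base inside exon 5, and the annotated exon end was used for its sequence. Its record also lists 4 exons, flanked by the introns before exon 2 and after exon 5, which are those of circRNA366. The record thus conflicts with its own upper end, and which is right was not tested.

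Spliced without introns, circRNA366 would measure 360 nt. Its exons 2, 3, 4 and 5 are 66, 56, 76 and 162 nt long and all coding. They are shown because they make up the whole of the main circle of these genes.
Myocd exon 2: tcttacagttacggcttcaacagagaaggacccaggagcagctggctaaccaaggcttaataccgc
Myocd exon 3: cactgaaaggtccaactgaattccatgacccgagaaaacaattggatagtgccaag
Myocd exon 4: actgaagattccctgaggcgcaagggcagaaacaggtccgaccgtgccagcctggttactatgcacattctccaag
Myocd exon 5: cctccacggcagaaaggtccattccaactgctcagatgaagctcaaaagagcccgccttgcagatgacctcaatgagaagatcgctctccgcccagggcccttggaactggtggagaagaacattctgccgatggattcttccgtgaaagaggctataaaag
The 360 nt are a multiple of 3, and the reading frame of Myocd met no stop codon on its way around the circle. The table counts the back-splice alone, so the inclusion of all 4 exons is taken from the annotation. The introns before exon 2 and after exon 5 are 36459 and 14106 nt long. The medians over the 8767 exonic circles of all host genes whose ends match annotated exons were 7528 nt before and 6091.5 nt after the circle.

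The other members are shown by the exonic junctions with the most reads of Mylk, Prkg1, Acta2 and Myh11, and by the further Mylk junctions that share its acceptor exon.
Mylk circRNA2691, exon 22 to exon 19: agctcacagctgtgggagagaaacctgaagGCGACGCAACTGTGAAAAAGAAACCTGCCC
Mylk circRNA5002, exon 25 to exon 19: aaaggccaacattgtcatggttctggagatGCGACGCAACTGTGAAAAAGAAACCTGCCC
Mylk circRNA7124, exon 21 to exon 19: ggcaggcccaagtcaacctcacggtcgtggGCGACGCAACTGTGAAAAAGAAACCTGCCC
Prkg1 circRNA943, exon 10 to exon 6: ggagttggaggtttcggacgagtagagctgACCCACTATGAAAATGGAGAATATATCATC
Acta2 circRNA3436, exon 7 to exon 7: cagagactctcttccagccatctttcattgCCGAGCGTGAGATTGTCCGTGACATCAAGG
Myh11 circRNA648, exon 15 to exon 13: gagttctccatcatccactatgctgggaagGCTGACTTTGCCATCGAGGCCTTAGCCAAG
The capitals of the 3 Mylk junctions are the same, the start of exon 19. For circRNA2691 and circRNA7124 the deposited start lies 1 base from the annotated start of exon 19, which was used here.

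Myocd held 80 of the 119 member reads (67.2%), and circRNA366 alone held 75 (63.0%). Among all 3981 host genes, Myocd ranked 59 by back-spliced reads, and circRNA366 ranked 36 among all entries. The median host gene had 3 reads and the highest 714. No other member came near Myocd. Myh11, the smooth muscle myosin heavy chain, and Mylk, the myosin light chain kinase, had 9 reads each and shared rank 882. Prkg1, the cGMP-dependent kinase that relaxes smooth muscle, had 8 reads, and Acta2, smooth muscle alpha-actin, had 6. Actn1, an actin crosslinker, had 3 reads, Cald1, the actin-binding caldesmon, had 2, and Lmod1, a leiomodin that nucleates actin, and Synpo2, an actin-binding synaptopodin, had 1 each. Cnn1, calponin, was the only member with none, and 3 reads, the limit that a count of 0 allows, are 0.00802% of all reads. This limit covers counting error only.

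**Figure D1:**
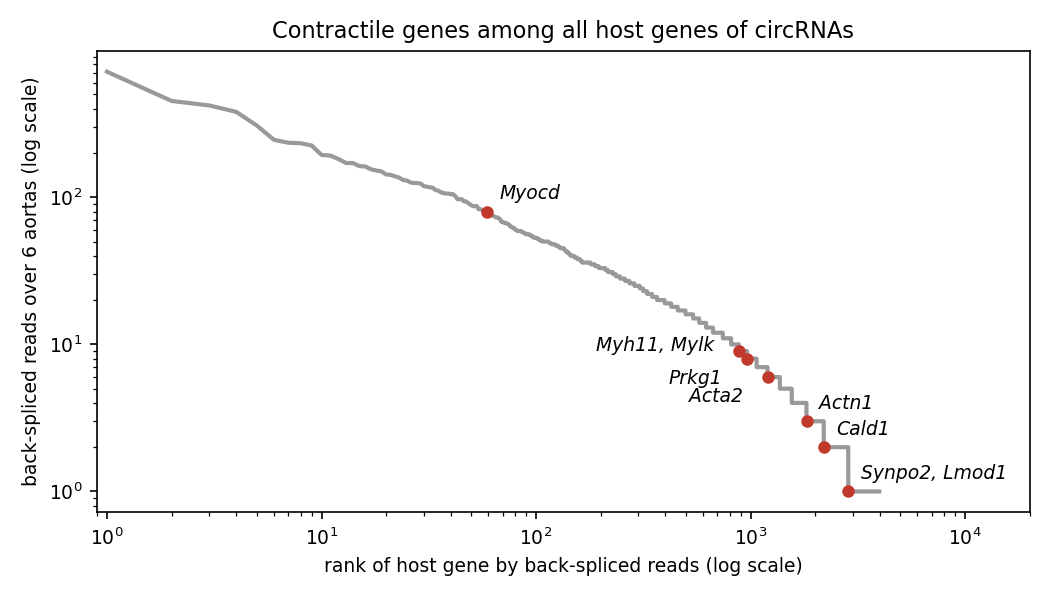
Back-spliced reads over 6 aortas (vertical log axis) of every host gene in order of rank (horizontal log axis), as a grey line, with the contractile genes as red points at the first rank of their read number. Myocd sits at rank 59 with 80 reads, and the other members with reads lie at rank 882 or beyond with 9 reads or fewer.

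Of the 29 entries, 21 were exonic and 8 were intronic, the entries called ciRNAs. A single member entry, mmu_circ_0007691 of Prkg1, carried a catalogue name (3.45%), against 2719 of all entries (27.1%). Most member entries were seen once: 17 had 1 read, and 23 had reads in 1 aorta (79.3%, against 74.4% of all entries). Another 5 had reads in 2 aortas and none in 3 to 5. circRNA366 alone had reads in all 6 aortas, as did 197 of all entries (1.97%).

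The aortas differed in depth. Back-spliced reads totalled 4694, 5621 and 4875 on the HFD and 7585, 7142 and 7476 on chow diet, so that the same number of reads is a larger share in an HFD aorta. Member reads numbered 17, 15 and 10 in HFD aortas and 28, 20 and 29 in chow diet aortas. As shares of each library these were 0.362%, 0.267% and 0.205% on the HFD and 0.369%, 0.28% and 0.388% on chow diet, and HFD replicate 1 lay among the chow diet aortas. Without Myocd the reads were 6, 6 and 4 in HFD aortas and 11, 4 and 8 in chow diet aortas. The corresponding shares were 0.128%, 0.107% and 0.082% against 0.145%, 0.056% and 0.107%, with the lowest value in a chow diet aorta.

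Myocd, the regulator of the programme, had 11, 9 and 6 reads in HFD replicates 1 to 3 and 17, 16 and 21 in chow diet replicates 1 to 3. Every HFD aorta had fewer reads than every chow diet aorta. Reads normalized for library size and composition (TMM) were 9.9 ± 3.3 on the HFD and 16.1 ± 1.7 on chow diet (SD, n = 3 each), and the groups did not overlap on this scale (two-sided exact permutation p = 0.1, the smallest that 3 against 3 allow). Of all host genes tested, 5.89% lay lower in every HFD than in every chow diet aorta after normalization. In the edgeR quasi-likelihood fit over 2240 host genes, the log2 fold change of Myocd was -0.71 (SE 0.48, 95% interval -1.65 to 0.23, Benjamini-Hochberg adjusted p = 0.71). Myocd was not called at the study's criteria for DECs, which take an absolute log2 fold change over 1 together with p below 0.05 before adjustment. The interval holds no change as well as a log2 fold change of -1.

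The separation of the diets depended on the scale. In SRPBM, the authors' signal in which the count is divided by a depth for each library, Myocd measured 190.6, 149.3 and 103.4 on the HFD and 230.6, 220.0 and 300.9 on chow diet, without overlap. The means were 147.8 ± 43.6 and 250.5 ± 44.0 SRPBM (SD, n = 3 each; two-sided exact permutation p = 0.1). As a share of the back-spliced reads of each library, Myocd took 0.234%, 0.16% and 0.123% on the HFD and 0.224%, 0.224% and 0.281% on chow diet. HFD replicate 1 then lay above 2 chow diet aortas (p = 0.3, two-sided exact permutation test). Over 15 other ways of processing the log2 fold change ranged from -0.87 to -0.46, and Myocd was called in none. The smallest differences came without HFD replicate 3 (-0.46) and without chow replicate 3 (-0.47).

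**Figure D2:**
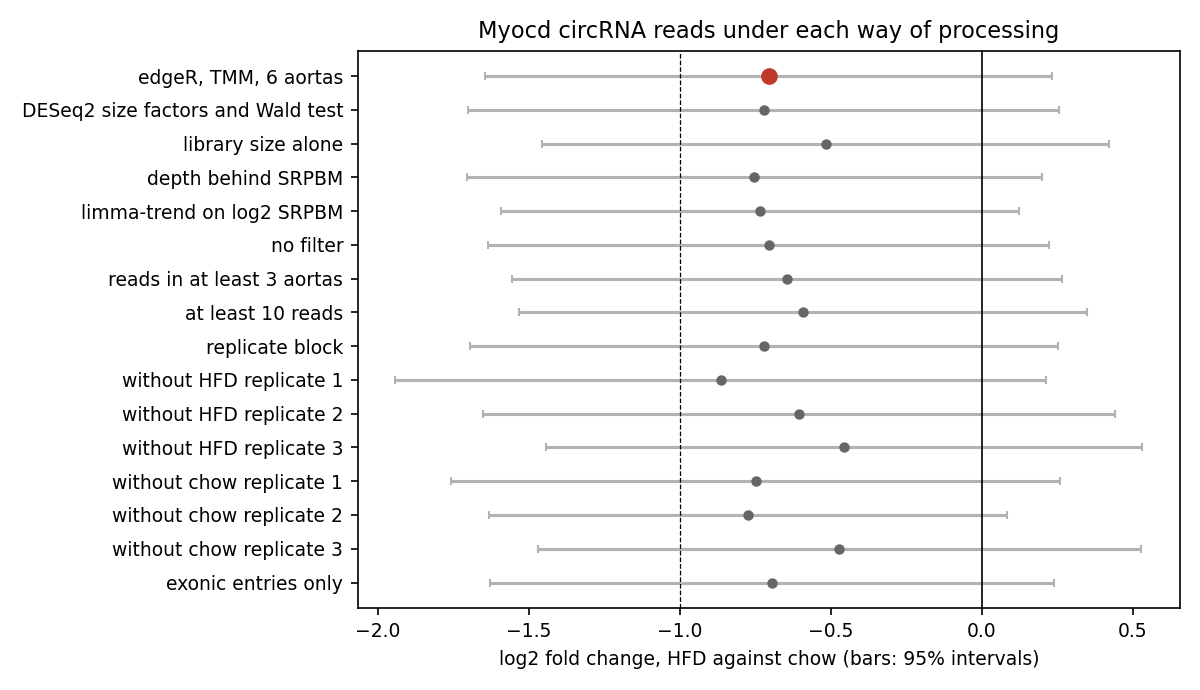
Log2 fold change of the summed Myocd reads, HFD against chow (horizontal axis; bars are 95% intervals), in the reported fit (red) and in 15 alternatives (grey), 1 in each row. All points lie below the solid line of no change, between -0.87 and -0.46, all bars cross it, and none of the points reaches the dashed line at -1.

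circRNA366 accounted for 93.8% of the Myocd reads. It had counts of 11, 9 and 6 in HFD aortas and of 17, 11 and 21 in chow diet aortas. The groups met at 11 reads, in HFD replicate 1 and chow replicate 2. Its log2 fold change was -0.52 (SE 0.51, edgeR adjusted p = 0.91). It ranged from -0.81 without HFD replicate 1 and -0.80 without chow replicate 2 to -0.38 without HFD replicate 3, and was -0.35 with library size alone. In SRPBM it measured 147.8 ± 43.6 on the HFD and 227.6 ± 74.9 on chow diet (SD, n = 3 each; two-sided exact permutation p = 0.2). The other 5 Myocd reads, 2 of circRNA3012 and 3 of circRNA4506, all came from chow replicate 2. The lack of overlap of the summed gene rests on these 5 reads on each scale where it was found. In circRNA366 alone, chow replicate 2 had 11 raw reads, 10.1 normalized reads and 151.2 SRPBM, against 11, 13.7 and 190.6 in HFD replicate 1. Whether the 3 reads of circRNA4506 belong to circRNA366 was not tested. Counted there, they would place chow replicate 2 above HFD replicate 1 in raw but not in normalized reads.

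Among the structural proteins of the contractile filaments, Myh11 had 1 read in each HFD aorta and 4, 1 and 1 reads on chow diet. Its 7 entries each occurred in a single aorta, so no Myh11 junction was seen in more than 1 mouse. circRNA648 of exons 13 to 15 had 3 reads, all in chow replicate 1, and the other 6 entries had 1 read each. Myh11 circles spanned the gene: by the 42-exon transcript ENSMUST00000231567 they ran from exon 2 alone (361 nt) to exons 14 to 41 (4385 nt). Acta2 had counts of 0, 1 and 0 in HFD aortas and of 1, 2 and 2 in chow diet aortas. HFD replicate 2 and chow replicate 1 had the same number. Its 1 exonic circle, circRNA3436, was exon 7 joined to itself (192 nt), with 1 read in each of chow replicates 2 and 3.

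Acta2 also had 3 of the 8 ciRNAs. ciRNA59 had 1 read in each of chow replicates 1 and 2 and spanned 563 of the 566 nt of intron 2. ciRNA715, with 1 read in HFD replicate 2, began at the same 5′ splice site and ended 3 bases earlier, and ciRNA434 covered all 1687 nt of intron 4. Together the 8 ciRNAs came from 5 genes (Acta2, Myh11, Actn1, Cald1 and Lmod1) and held 9 of the 119 member reads (7.56%, against 4.66% of all reads). By entries they made up 27.6% of the members, against 9.3% of the table. All 8 began at the first base of an intron, and 7 ended within 25 bases of its end. The exception was ciRNA865 of Cald1, which covered the first 183 of 7427 nt of intron 5.

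Among the kinases, Mylk had counts of 2, 1 and 0 in HFD aortas and of 2, 0 and 4 in chow diet aortas, with a 0 in each diet. Of its 9 reads, 8 belonged to the 3 circles that start at exon 19 of the 32-exon transcript ENSMUST00000023538, and these end at exons 21, 22 and 25. circRNA2691 of exons 19 to 22 (636 nt) had the most, 2 reads in each of chow replicates 1 and 3. circRNA7124 of exons 19 to 21 (333 nt) had 2 reads in HFD replicate 1, and circRNA5002 of exons 19 to 25 (967 nt) had 2 in chow replicate 3. The fourth circle, circRNA7396, had 1 read in HFD replicate 2. Prkg1 had counts of 3, 2 and 0 in HFD aortas and of 3, 0 and 0 in chow diet aortas, so its reads came from 3 aortas. circRNA943 of exons 6 to 10 (411 nt) had 1 read in HFD replicate 1 and 2 in chow replicate 1, and circRNA944 of exons 2 and 3 (281 nt) had 1 in each of these. mmu_circ_0007691, exon 2 alone (167 nt), had 2 reads in HFD replicate 2. Prkg1 spans 1200.5 kb, the longest of the members, and the intron after exon 3 measures 309123 nt.

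**Figure D3:**
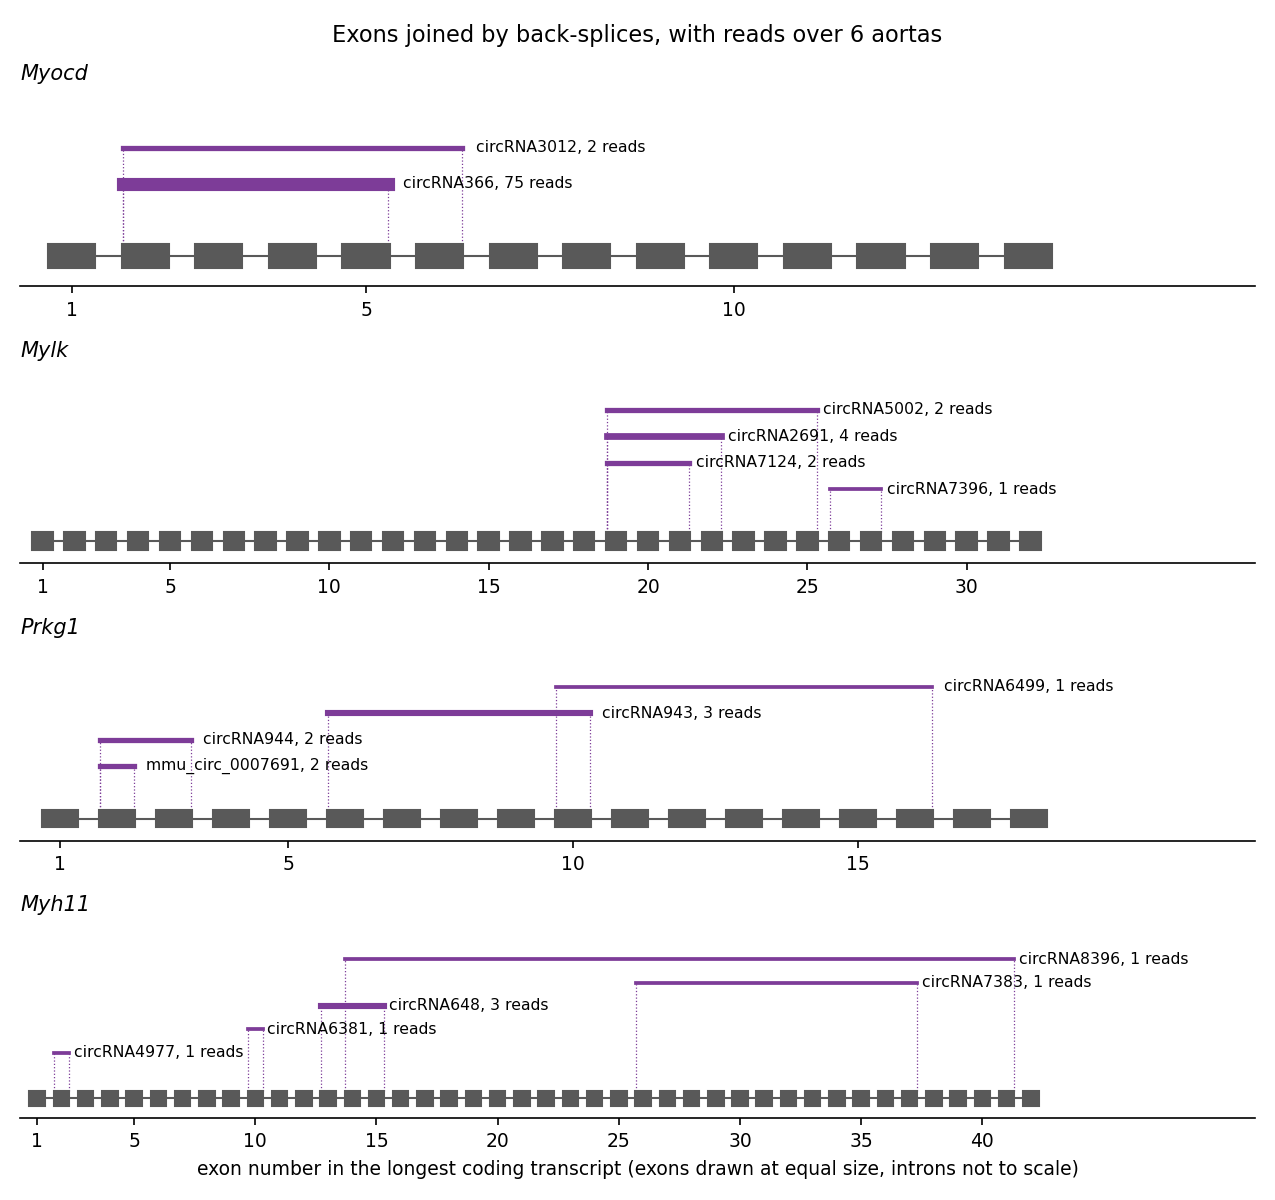
Exonic circles of Myocd, Mylk, Prkg1 and Myh11 (purple lines, thicker with more reads) over the exons of the longest coding transcript of each gene (grey boxes at equal size, horizontal axis in exon number). circRNA366 of Myocd stands out with 75 reads, 2 of the Myocd, 3 of the Mylk and 2 of the Prkg1 circles share a first exon, and the 5 Myh11 circles all start at different exons. circRNA4506 of Myocd and the ciRNAs are not drawn.

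The remaining actin-binding members had 3 reads or fewer. Actn1 had 1 read in each of HFD replicate 3, chow replicate 1 and chow replicate 3, each from a different entry. circRNA258 joined exons 11 to 14 (549 nt), circRNA4763 exons 2 to 8 (657 nt), and ciRNA810 was intron 17. The 2 reads of Cald1 came from HFD replicates 2 and 3. They were circRNA7613 of exons 2 and 3 (201 nt) and ciRNA865. Lmod1 had 1 read of ciRNA900, in intron 2, in HFD replicate 3. Synpo2 had 1 read of circRNA3945, exons 2 to 4 (3129 nt), in chow replicate 2. Cnn1, at 10.4 kb the shortest of the 10 genes, had no read in any aorta. No entry of another gene overlapped the locus of a member, so no reads at these loci were listed under another name.

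**Figure D4:**
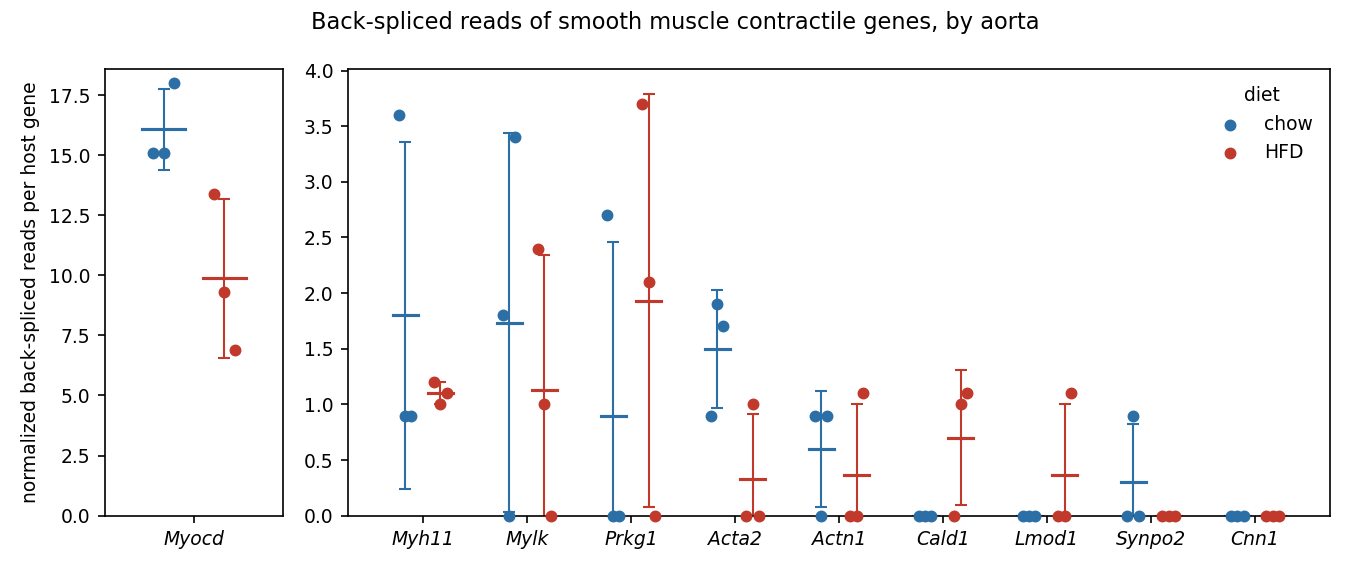
Normalized back-spliced reads of each host gene (vertical axes, which differ in scale) by aorta, chow in blue and HFD in red, with the mean as a line and the SD as bars (cut at 0; n = 3). The diets separate on this scale for Myocd, at 9.9 ± 3.3 on the HFD and 16.1 ± 1.7 on chow diet, which rests on 5 reads of chow replicate 2, while the other members lie near 0 to 4 reads and Cnn1 is at 0 throughout.

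Of the 10 genes, 7 had reads in at least 2 aortas and were tested, and Lmod1, Synpo2 and Cnn1 were not. None of the 7 was called by edgeR, by DESeq2 or by limma on log2 SRPBM, and none had an unadjusted p under 0.05 by any of them. Over all 2240 host genes tested, edgeR called 4.46%, of which the genes called lower on the HFD made up 2.77% of those tested, and 0.179% had an adjusted p under 0.05. The edgeR p-values of the members other than Myocd were 0.679 for Myh11, 0.696 for Mylk, 0.52 for Prkg1, 0.349 for Acta2, 0.777 for Actn1 and 0.126 for Cald1, which passed the filter through its 2 reads on the HFD alone. Fold changes are not given for these, since nearly all their libraries held 3 reads or fewer. Of the 29 member junctions, 6 were tested, and 0 were called by edgeR, DESeq2 or limma, with 0 at an unadjusted p under 0.05 by each and a smallest edgeR p of 0.12. Of these 6, circRNA2691, ciRNA59 and circRNA3436 had reads on chow diet alone and so passed the filter through that group. Among all 2646 junctions tested, 3.4% were called.

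The exonic member circles were set beside those of all host genes by structure. Allowing 1 base at the lower coordinate, both ends of 20 of the 21 matched exons of 1 transcript (95.2%, against 97.5% of all exonic entries), circRNA4506 being the exception. The median spliced length was 456 nt against 549 nt. A start at exon 2, the first exon with an acceptor site, was found for 8 of 20 (40.0%) against 28.9%, and a single exon for 4 of 20 (20.0%) against 5.2%. Of the 18 member circles that were all coding, 12 had a length that is a multiple of 3 (66.7%), against 40.4% of 6855 such circles. The member circles share genes and exons, so these shares are descriptions. In the letters of circRNA366, read around the junction, there was no 7-base match to the seed of mmu-miR-17-5p (GCACTTT), of mmu-let-7b-5p (CTACCTC) or of mmu-miR-212-5p (GCCAAGG). These motifs were searched on the circle's own strand, and 2.8%, 2.6% and 4.7% of the 1636 circles of 300 to 420 nt held them.

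The other contractile and cytoskeletal genes gave more reads than the members. Of a list of 40, 26 had reads (817 in all) and 14 had none, among them Tagln, Des, Myl9, Tpm2 and Actg2. The list took 1.477% to 2.17% of reads on the HFD and 2.194% to 2.808% on chow diet. Itga8 alone took 0.123% to 0.249% on the HFD and 0.392% to 0.567% on chow diet, and without it the ranges of the list overlap. Of the 18 genes tested, 2 were called at the criteria for DECs, both lower on the HFD, beside the 4.46% of all host genes called, and 1 had an adjusted p under 0.05 (edgeR).

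Itga8, the alpha-8 integrin subunit of smooth muscle, had counts of 7, 14 and 6 in HFD aortas and of 43, 28 and 41 in chow diet aortas. The highest HFD aorta had a count under the lowest on chow diet. Normalized reads were 8.5, 14.5 and 6.9 against 38.3, 26.5 and 35.2, a log2 fold change of -1.71 (SE 0.40, edgeR adjusted p = 0.0082). Itga8 was called in all 15 alternatives, with log2 fold changes of -2.03 to -1.45 and adjusted p-values of 0.0091 to 0.44, under 0.05 in 7. Flna, the actin crosslinker filamin A, had counts of 3, 11 and 4 in HFD aortas and of 23, 15 and 17 in chow diet aortas, again without overlap. Its log2 fold change was -1.28 (SE 0.52, edgeR adjusted p = 0.67). After normalization, Itga8 and Flna lay lower in every HFD than in every chow diet aorta, as did 5.89% of all host genes tested. The call of Flna was lost without HFD replicate 1 (-0.90), without HFD replicate 3 (-1.02) and without chow replicate 1 (-1.09).

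Pde5a, the cGMP phosphodiesterase that counteracts Prkg1, had the most reads of the list, 24, 36 and 28 on the HFD and 62, 54 and 31 on chow diet, with chow replicate 3 inside the HFD range of raw reads. Its log2 fold change was -0.42 (SE 0.29, edgeR adjusted p = 0.73), and -0.21 without HFD replicate 1, -0.22 without chow replicate 1 and -0.22 with library size alone. Cacna1c, the L-type calcium channel pore, had counts of 12, 16 and 9 in HFD aortas and of 16, 13 and 21 in chow diet aortas, and the diets overlapped. Its log2 fold change of -0.10 (SE 0.45) turned to 0.09 with library size alone. Ppp1cb, the catalytic subunit of myosin light chain phosphatase, had 4, 8 and 4 reads against 17, 11 and 9, without overlap in raw reads but with chow replicate 3 below HFD replicate 2 after normalization (log2 fold change -0.88, SE 0.60, edgeR adjusted p = 0.72). Without chow replicate 1 its log2 fold change was -0.58. Of the 11 listed genes with at least 10 reads, 10 had a negative log2 fold change (90.9%, median -0.73), against 59.4% of 880 host genes of that depth (median -0.24). With library size alone these were 9 of 11 (81.8%, median -0.54) against 52.8% (median -0.05). The list was chosen with earlier results of these data known, and its genes share the same aortas, so these shares are descriptions. Tpm1 (1, 0 and 0 reads on the HFD, 5, 3 and 3 on chow diet) and Vcl (5, 1 and 0 against 2, 6 and 5) reached 10 reads only through their chow diet counts.

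**Figure D5:**
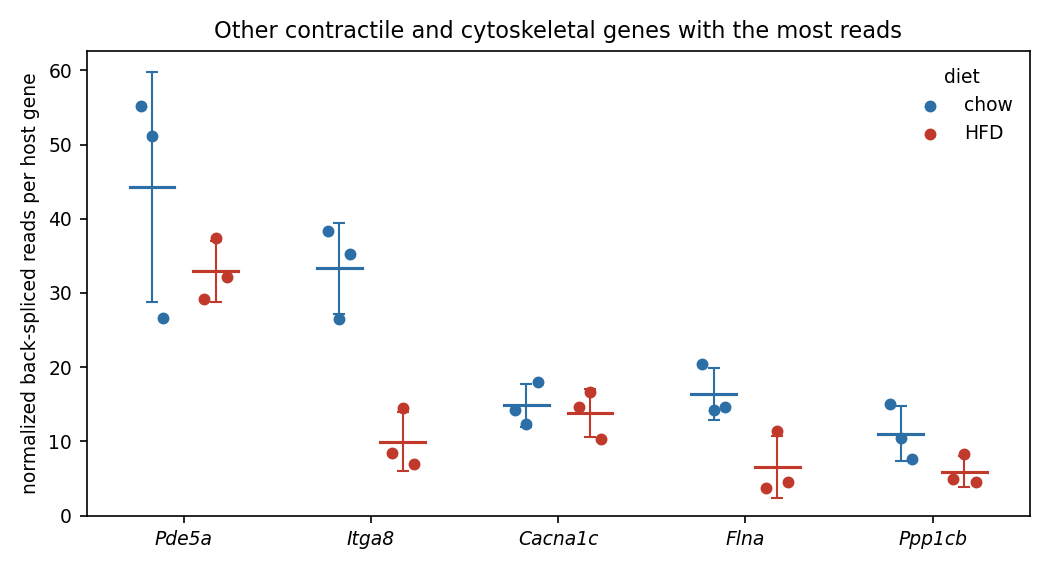
Normalized back-spliced reads of the 5 other contractile and cytoskeletal genes with the most reads (vertical axis) by aorta, chow in blue and HFD in red, with the mean as a line and the SD as bars (n = 3). Itga8 (6.9 to 14.5 on the HFD, 26.5 to 38.3 on chow diet) and Flna separate by diet, and Pde5a, Cacna1c and Ppp1cb overlap.

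The host genes of the reads also held markers of other cell types, counted by their circles. Of 9 smooth muscle markers 6 had reads, 80 of their 100 reads were from Myocd, and Cnn1, Tagln and Des had none. Their summed share was 0.164% to 0.256% on the HFD and 0.28% to 0.361% on chow diet. Without the 5 reads of circRNA3012 and circRNA4506 the chow diet range was 0.21% to 0.361%, which overlaps that of the HFD. Of 10 macrophage markers 9 had reads, with Cd68 at 0, and took 0.618% to 0.925% on the HFD and 0.308% to 0.343% on chow diet. Abca1, a cholesterol exporter that other cells also use, rose on the HFD (18, 31 and 17 reads against 7, 6 and 4, log2 fold change 2.25, edgeR adjusted p = 0.0036). Without Abca1 the macrophage share was 0.234% to 0.374% against 0.224% to 0.281%.

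Endothelial markers (4 of 9 with reads, Cdh5 and Kdr at 0) took 0.071% to 0.164% on the HFD and 0.028% to 0.067% on chow. HFD replicates 1 to 3 held 4, 4 and 8 such reads, chow replicates 1 to 3 held 3, 2 and 5. Raw reads thus overlapped, with Erg seen in HFD aortas alone, Vwf in chow diet aortas alone. Fibroblast markers (3 of 6, Pdgfra at 0) took 0.021% to 0.103% in HFD aortas, against 0% to 0.013% in chow diet aortas. Their counts by replicate were 1, 5 and 5 against 0, 0 and 1, and Col3a1 supplied all 5 of HFD replicate 2. Neither difference was tested. Adipocyte markers (6 of 8, Adipoq at 0) took 0.103% to 0.192% on the HFD and 0.171% to 0.406% on chow diet. Acaca gave 53 of their 77 reads, 21 of them in chow replicate 2, the aorta with the highest share. Skeletal muscle (2 of 8) took 0.185% in HFD replicate 3, where Ttn had 9 reads, and none in the other HFD aortas, and at most 0.053% on chow diet. HFD replicate 3 was also the aorta with the fewest Myocd reads. Cardiac muscle (1 of 5) took at most 0.054%, and neuron and glia (1 of 5) at most 0.084%. The part of these cell types in the values of Myocd, Itga8 and Flna was not tested.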

How the data were processed

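The authors depleted ribosomal RNA and trimmed reads with Cutadapt. The labels also name RNase R for isolating circRNA, and whether the sequenced libraries had both is not stated. TopHat-Fusion, CIRCexplorer and CIRI then found the circRNAs. Versions and genome build are not given in the sources used here. Coordinates are given for GRCm38, since entry ends fell on GENCODE vM21 exons. The deposited counts are back-spliced reads per entry and aorta, not normalized. The deposited signal, SRPBM, is each count divided by 1 depth per library (57.7 to 73.7 M). The table also holds the authors' fold changes and p-values, which were not used. The mRNA data were not analysed here.

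Host genes given as Ensembl identifiers (1224 entries) were all matched to symbols. The 475 pairs of entries with the same end and starts 1 base apart were summed, which gave 9548 junctions. No member entry was in a pair. Counts of junctions and of host genes were scaled by TMM, and edgeR 4.0.16 was used for the tests (R 4.3.3, glmQLFit and glmQLFTest) between the diets, for those with reads in at least 2 of 6 aortas. SE was the log2 fold change over the root of F, intervals are 95%, and p-values were adjusted by Benjamini-Hochberg over all tested. Normalized reads are counts scaled to the mean effective library size. Single values were compared by exact permutation (scipy 1.17.1). Alternatives used DESeq2 1.42.0, limma 3.58.1 on log2 of SRPBM plus 13.6, other scalings and filters, and each aorta left out. The models were tested on simulated data.

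The members and lists were chosen with earlier results of these data known. Of the members, the genes and their leading or repeated junctions are named, and of the other contractile genes those called and the 5 with the most reads. Each aorta is labelled as a separate sample, and the chi-square per degree of freedom between libraries of a diet was 1.75 to 2.36, above sampling noise. With 4694 to 7585 reads per library, 3 reads are 0.0396% to 0.0639% of a library. The result for lymphocyte markers is not reported here.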

Additional observations from a re-analysis of the deposited data

How the results depend on the processing

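No member gene or junction was called under any of the 15 alternatives of either level, and Myocd and circRNA366 kept a negative log2 fold change in all of them. The number of calls over the whole table moved more. Junction calls went from 90 to 26 with DESeq2, 48 with at least 10 reads and 104 with entries as deposited, and from 47 to 111 with 1 aorta left out. Host gene calls went from 100 to 39 with DESeq2 and 49 with at least 10 reads, and from 49 to 118 with 1 aorta left out. With the replicate block there were 30 junction and 41 host gene calls. The numbers mark no shared animal, same-numbered aortas did not deviate together (correlations -0.021, -0.021 and -0.025), and none of the 6 libraries correlated best with its own number. The share of lower calls among host genes was 62.0% with TMM and 47.2% with library size alone (junctions, 68.9% and 50.7%), and over all host genes the median went from -0.17 to 0.02. It was 78.8% with limma and 75.8% with reads in at least 3 aortas, and among junctions 80.8% with DESeq2 and 83.0% with reads in at least 3 aortas. Calls among the other contractile genes, an alternative added after the data were seen, ranged from 1 to 3 with 1 aorta left out, and 3 were called by limma. The third was Tpm1, with counts of 1, 0 and 0 in HFD aortas and of 5, 3 and 3 in chow diet aortas. Its chow diet aortas alone met the filter, and its HFD aortas alone did not. Without HFD replicate 3 the 1 call was Itga8. The calls were not always the same genes: beside Itga8, Tpm1 was called in place of Flna without HFD replicate 1 and Filip1l without chow replicate 1, and Rock1 was the third without chow replicate 3. Filip1l had no read on the HFD and 0, 3 and 2 on chow diet, so it passed the filter through the chow diet aortas alone. Cacna1c reversed to 0.09 with library size alone, 0.01 with at least 10 reads, and with 1 aorta left out it ranged from -0.24 to 0.21, above 0 without HFD replicate 3 (0.12) and chow replicate 3. The cause of these shifts was not tested. With 3 aortas a diet, 6 to 21 reads of Myocd per aorta and 9 reads or fewer in all for each other member, counting error limits all member values.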
